A study of Mus musculus with 2 samples.

Results

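Glycolysis genes were examined in sorted spinal microglia as 10 members of the pathway, namely Slc2a1, Hk2, Aldoa, Tpi1, Gapdh, Pgk1, Pgam1, Eno1, Pkm and Ldha, of 32245 gene symbols in the count tables. Members were taken as the rows carrying these symbols, which gave 11 rows, because Aldoa was listed under a second identifier (ENSMUSG00000114515) that held 0 UMIs in both libraries. The cells came from the spinal cord of male mice 8 to 10 weeks old and were sorted as CD45lo, CD11b+ and CX3CR1+. There was 1 library from control mice, labelled WT and given as Eif4ebp1fl/fl in a supplementary figure legend of the study. The other 1 came from 4E-BP1–cKO animals, of genotype Eif4ebp1fl/fl:TMEM119CreERT2. These were designed to lack the translational repressor 4E-BP1 in microglia after 4-hydroxytamoxifen was injected from P4 to P9. Cre was driven by the Tmem119 promoter and was absent from the control genotype as that legend gives it. Whether the control mice received the injections is not stated. The number of mice behind each library is not stated in the study's labels or methods. Because each genotype had 1 library, no test between genotypes was possible, and every interval below covers counting error only.

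Glycolysis splits glucose into pyruvate in the cytosol and yields ATP without oxygen. Slc2a1 (GLUT1) carries glucose across the plasma membrane, and hexokinase 2 (Hk2) phosphorylates it, which traps the sugar in the cell and commits it to metabolism. Aldolase A (Aldoa) cleaves the phosphorylated hexose, and Tpi1 interconverts the resulting trioses. Gapdh oxidizes glyceraldehyde 3-phosphate, Pgk1 makes ATP, Pgam1 and Eno1 rearrange and dehydrate phosphoglycerate, and Pkm makes ATP and pyruvate. Ldha turns pyruvate into lactate and regenerates NAD+. Microglia are known to shift toward glycolysis when they are activated, and many of these genes are known targets of the hypoxia-inducible transcription factor HIF-1.

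The members lie on 6 chromosomes of the mouse genome (GRCm38, the build of mm10). Slc2a1 spans chr4:119108745-119137330, Hk2 spans chr6:82725025-82774454, and Aldoa spans chr7:126795234-126800994. Tpi1 (chr6:124810586-124814158), Gapdh (chr6:125161852-125166467) and Pgam1 (chr19:41911871-41918665) are short genes. Pgk1 lies at chrX:106187100-106203699, Eno1 at chr4:150236708-150248879, Pkm at chr9:59656576-59679372 and Ldha at chr7:46842274-46855627. From end to end, introns included, the annotated genes ran from 3.57 kb for Tpi1 to 49.4 kb for Hk2.

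Upstream sequence is shown for 4 members, because they stood at opposite ends of the comparison between cells of high and low ribosomal share that is given further on. Of the 7 members with a start-site window wholly outside the annotated gene, Hk2 and Slc2a1 had the lowest ratios in the control library, and Pgam1 and Eno1 had the highest. In the 4E-BP1–cKO library Eno1 stood below Pkm and Pgk1, which also belong to these 7. Each sequence is the 250 bases before an annotated transcript start, from RefSeq (GRCm38.p6), written 5′ to 3′ on the strand of the gene. Capitals mark ACGTG or GCGTG, the core that HIF-1 is known to bind, on either strand (so also CACGT and CACGC). The windows are chr6:82774455-82774704 (minus strand) for Hk2, chr4:119108495-119108744 (plus strand) for Slc2a1, chr19:41911621-41911870 (plus strand) for Pgam1 and chr4:150236458-150236707 (plus strand) for Eno1.
Hk2: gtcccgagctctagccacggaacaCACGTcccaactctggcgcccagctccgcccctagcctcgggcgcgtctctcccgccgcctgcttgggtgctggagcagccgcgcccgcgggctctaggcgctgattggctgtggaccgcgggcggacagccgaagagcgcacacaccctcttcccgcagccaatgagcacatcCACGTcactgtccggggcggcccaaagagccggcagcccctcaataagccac
Slc2a1: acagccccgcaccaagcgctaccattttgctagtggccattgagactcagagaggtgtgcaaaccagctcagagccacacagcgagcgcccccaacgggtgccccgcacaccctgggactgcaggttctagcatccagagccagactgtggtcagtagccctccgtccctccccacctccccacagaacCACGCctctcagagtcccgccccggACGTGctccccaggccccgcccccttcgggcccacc
Pgam1: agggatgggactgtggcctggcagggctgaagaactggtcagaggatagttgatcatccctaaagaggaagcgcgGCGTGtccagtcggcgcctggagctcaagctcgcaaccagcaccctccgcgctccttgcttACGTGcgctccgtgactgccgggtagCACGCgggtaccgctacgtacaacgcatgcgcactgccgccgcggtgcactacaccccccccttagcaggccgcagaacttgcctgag
Eno1: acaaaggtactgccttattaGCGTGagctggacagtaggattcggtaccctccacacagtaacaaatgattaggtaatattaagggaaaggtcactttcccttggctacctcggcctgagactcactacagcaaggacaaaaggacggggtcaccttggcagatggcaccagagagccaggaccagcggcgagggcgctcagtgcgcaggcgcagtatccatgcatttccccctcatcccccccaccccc

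The motif was found 2 times each in the windows of Hk2 and Slc2a1, 3 times in that of Pgam1 and 1 time in that of Eno1, so windows from both ends of this control order held it. All 10 members matched the RefSeq table, with 16 windows, of which 13 held the motif, against 38.6% of the 32851 windows of the same length in the table. Some windows of Aldoa and of Eno1 overlap and share their matches. The windows were not matched for base content, so the shares describe the windows and are not a test of enrichment. Tpi1 was the member without a match in any window. CACGTG, found in an Ldha window, is the motif on both strands and counts as 2 overlapping matches. A match describes the letters of the window and is not evidence of binding.

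A barcode was kept as a cell if over 300 genes were detected and mitochondrial transcripts made up less than 5% of its UMIs, so that 1147 of 1216 control and 445 of 474 4E-BP1–cKO barcodes remained, with 4803562 and 1734332 UMIs, and the libraries shared 0 barcodes. The median cell held 3053 UMIs in the control and 2776 UMIs in the 4E-BP1–cKO library. Eif4ebp1, the targeted gene, had 95 UMIs in the control (19.8 CPM, the UMIs of a gene scaled to 1000000 UMIs of the cells compared, with an interval of 16.0 to 24.2) and 51 UMIs in the 4E-BP1–cKO library (29.4 CPM, 21.9 to 38.7). Reads came from the 3′ ends of transcripts, so this count does not check a deletion elsewhere in the gene. All 10 microglial markers were detected, and at least 3 of them were present in 1082 control and 404 4E-BP1–cKO cells. At least 3 markers of another cell type were found in 20 control cells and 3 4E-BP1–cKO cells.

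Hk2 was the most abundant member in both libraries by UMI counts. UMI counts from 3′ ends count molecules and are not scaled by length, so levels can be ordered between genes, within the limits of capture. Hk2 had 4047 UMIs in the control (842 CPM) and 1681 UMIs in the 4E-BP1–cKO library (969 CPM), which is 3.13 times (interval, 2.94 to 3.33) and 3.74 times (3.36 to 4.15) the UMIs of Gapdh, the next member. Gapdh had 1293 UMIs (269 CPM) and 450 UMIs (259 CPM). Hexokinase transcripts thus outnumbered those of Gapdh, a gene commonly used as a reference for constant expression. Gapdh and several of the other enzymes are known to have processed pseudogenes. Whether reads shared with such copies were lost from the counts is not known, so the levels of these enzymes beside Hk2 are uncertain. Whether reads within introns were counted is not known either, which bears on any comparison of a long gene such as Hk2 (49.4 kb) with a short one such as Gapdh (4.62 kb), and its part in this order was not tested. Slc2a1 stood at rank 3 in both libraries, with 547 UMIs (114 CPM) and 223 UMIs (129 CPM).

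The remaining 7 enzymes lay between 27.7 and 101 CPM. In the control library Ldha (85.8 CPM), Tpi1 (79.7 CPM), Pkm (76.8 CPM) and Aldoa (74.5 CPM) followed each other with ratios between 1.03 and 1.08, and each of these intervals included 1, so neighbours in this order were not resolved. Eno1 (62.9 CPM) was below Aldoa by a ratio of 1.19 (1.01 to 1.39), and Pgam1 (34.8 CPM) and Pgk1 (27.7 CPM) came last, with an unresolved ratio of 1.26 (0.994 to 1.59). In the 4E-BP1–cKO library Pkm and Ldha both stood at 101 CPM, above Aldoa (75 CPM), Tpi1 (69.8 CPM), Eno1 (50.2 CPM), Pgam1 (47.3 CPM) and Pgk1 (29.4 CPM). The first 3 and the last 3 members had the same order by UMIs in both libraries, and ranks 4 to 7 differed. Eno1 over Pgam1 was not resolved in the 4E-BP1–cKO library (1.06, 0.776 to 1.45). Ranks 4 to 7 held unresolved neighbours in both libraries.

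Per cell, most members were sparse. At least 1 UMI of Hk2 was present in 79.7% of control cells (77.2 to 82.0%) and, in the 4E-BP1–cKO library, in 79.1% (75 to 82.8%), with a median of 2 UMIs and a maximum of 68 and 34. Gapdh was seen in 41.3% (38.5 to 44.2%) and 37.5% (33.0 to 42.2%) of the cells, and Pgk1, the least frequent, in 8.72% (7.15 to 10.5%) and 8.54% (6.11 to 11.5%). Any of the 10 members was found in 91.6% and 91.7% of the cells. After each cell was thinned to 872 UMIs, a depth that 89 control and 70 4E-BP1–cKO cells did not reach, Hk2 was seen in 49.8% and 49.9% of the cells and Gapdh in 14.1% and 15.7%. In these thinned cells 5 or more different members were found together in 3 of 1058 control and 0 of 375 4E-BP1–cKO cells (exact upper bound, 0.979%), so coordination of the pathway within single cells was not resolvable at this depth. Background from free RNA was not measured, since empty droplets were not analysed here and no cell type that should lack these genes was at hand.

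Isozymes of each step were compared as shares of their family's UMIs. Hk2 made up 92.3% of hexokinase UMIs in the control (91.5 to 93.1%) and 93.7% in the 4E-BP1–cKO library (92.5 to 94.8%). Hk3 held 4.27% and 4.07%, and Hk1, the housekeeping form of many tissues, held 3.17% and 2.17%. Aldoa (99.2% in both), Pkm (99.5%, and 175 of 175 UMIs) and Eno1 (84.6% and 87.9%) likewise held most of their families. Pgam1 and Pgk1 were the forms detected in theirs, with Pgam2 and Pgk2 at 0 UMIs in both libraries.

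Ldha was the exception among the members. Ldhb, the subunit that favours the conversion of lactate to pyruvate, held 60.7% of lactate dehydrogenase UMIs in the control (57.7 to 63.6%), against 37.3% for Ldha (34.4 to 40.2%). Ldhb in the 4E-BP1–cKO library held 62.0% (57.3 to 66.4%) and Ldha 38.0% (33.6 to 42.7%). Slc2a1 held 52.9% of the UMIs of the 4 hexose carriers counted in the control and 58.1% in the 4E-BP1–cKO library, while Slc2a5, a fructose carrier known as a microglial gene, held 37.1% and 33.1%. Phosphofructokinase, the committed step, was mainly Pfkl (70.5% and 82.5%) at a low level of 26.9 and 30.0 CPM. Its regulator Pfkfb3, which makes the activator fructose 2,6-bisphosphate, stood at 389.5 and 336 CPM, between Hk2 and Gapdh in both libraries.

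**Figure D1:**
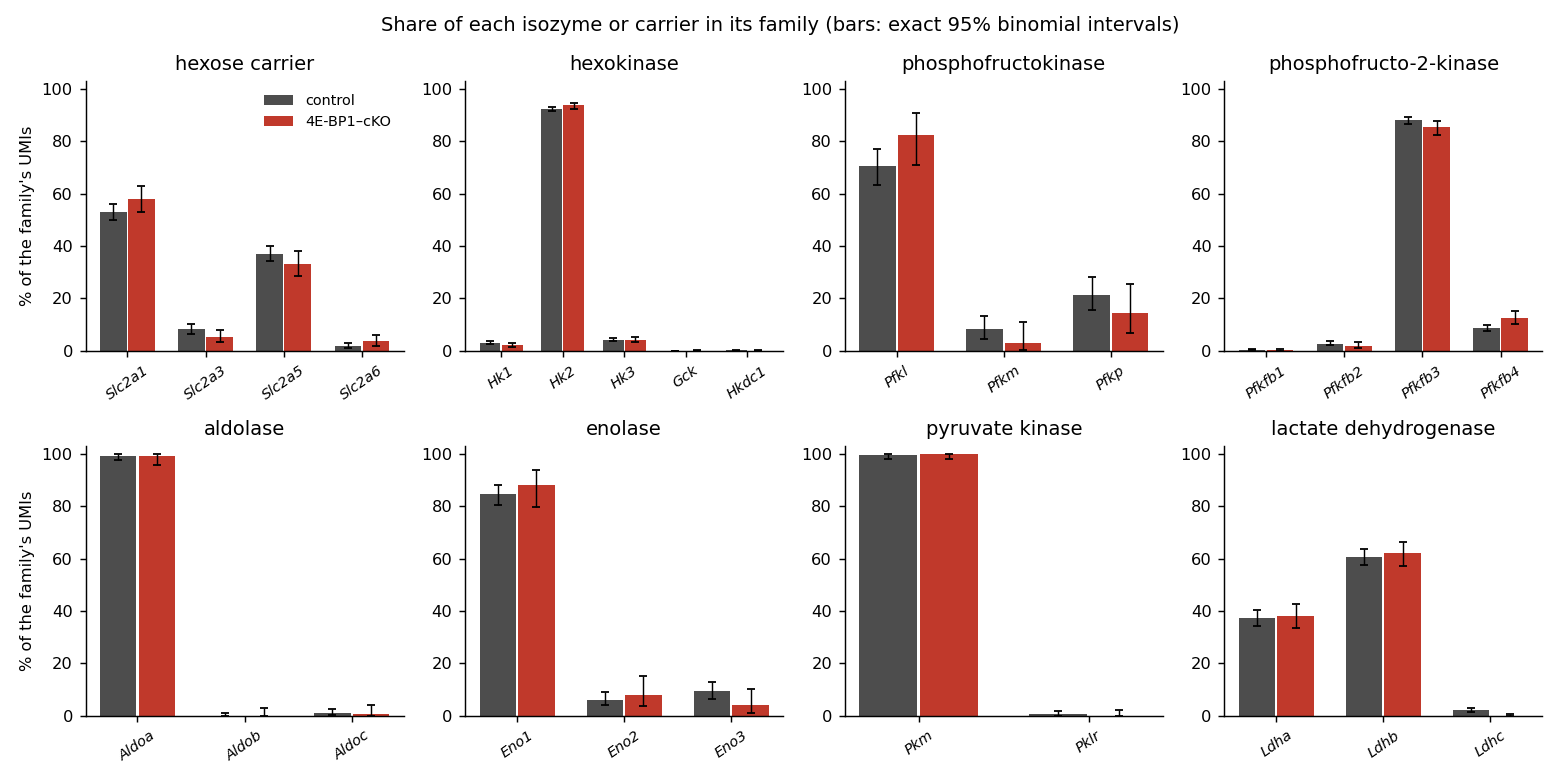
Share of each isozyme or carrier in the UMIs of its family, in percent, in the control (grey) and 4E-BP1–cKO (red) libraries, with exact 95% binomial intervals that cover counting error only. Hk2, Aldoa, Pkm, Eno1 and Pfkfb3 held most of their families in both libraries, whereas Ldha held 37.3% and 38.0% beside a larger share of Ldhb.

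The cells differed widely in the share of their UMIs that came from 85 ribosomal protein genes, with a median of 2.22% in the control and 3.53% in the 4E-BP1–cKO library. Cells were placed in 4 classes by this share. Under 2% lay 549 control and 177 4E-BP1–cKO cells, between 2 and 5% lay 275 and 93, between 5 and 10% lay 238 and 121, and at 10% or more lay 85 and 54. As a share of cells, the lowest class took 47.9% in the control (44.9 to 50.8%) and 39.8% in the 4E-BP1–cKO library (35.2 to 44.5%).

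Across these classes the members split. Gapdh had a higher level in each successive class, from 74.7 CPM (61.4 to 90.0) through 261 and 344 to 575 CPM (517 to 637) in the control cells. Gapdh in the 4E-BP1–cKO cells went from 57.9 CPM (37.1 to 86.2) through 161 and 364 to 451 CPM (380.1 to 531). Hk2 was instead highest in the lowest class, at 1264 CPM (1207 to 1323) in the control, with 648, 680.0 and 619.6 CPM in the classes above. Hk2 in the 4E-BP1–cKO cells stood at 1446 CPM (1333 to 1567), 749.6, 766 and 1009 CPM (902 to 1126), so it rose again in the highest class. After thinning to 872 UMIs, Gapdh was seen in 3.51, 21.2, 24.9 and 36.9% of the cells over the control classes and 5.37, 17.6, 22.9 and 28.3% over the 4E-BP1–cKO classes. Hk2 was seen in 55.0, 47.6, 46.3 and 31.0% of the thinned control cells and in 58.4, 38.2, 41.9 and 56.6% of the thinned 4E-BP1–cKO cells, where the highest class was close to the lowest and their intervals overlapped. Intervals of the Hk2 level in the lowest class did not overlap those of any higher class in either library.

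By CPM, most of the other enzymes had their highest level in the class of 10% or more. Aldoa had 25.8, 58.6, 102 and 161 CPM from the lowest to the highest control class, and 45.9, 47.0, 81.8 and 136 CPM in the 4E-BP1–cKO cells. Pgam1 had 13.6, 28.5, 50.4 and 62.1 CPM in the control and 16.9, 47.0, 48.4 and 85.2 CPM in the 4E-BP1–cKO cells. By CPM, Pgam1 was thus lowest in the lowest class of both libraries, as was Aldoa in the control. The lower 2 4E-BP1–cKO classes held 19 Aldoa UMIs each and were not resolved. For Pgam1 they held 7 and 19 UMIs, with overlapping intervals (6.79 to 34.8 and 28.3 to 73.4 CPM). In thinned 4E-BP1–cKO cells Aldoa was seen in 7.38, 2.94, 2.86 and 13.2% of the cells and Pgam1 in 1.34, 0, 4.76 and 17.0%. By these shares the lowest class was not lowest for either gene. Its intervals (3.74 to 12.8% for Aldoa and 0.163 to 4.76% for Pgam1) overlapped those of the middle classes, so this order was not resolved. Pkm (53.0 to 127 CPM in the control, 43.5 to 179.8 CPM in the 4E-BP1–cKO cells) and Ldha (57.1 to 129 and 72.4 to 129 CPM) had a higher CPM in each successive class. At equal depth they did not rise in order. Pkm was seen in 4.98, 5.19, 3.98 and 14.3% of thinned control and 1.34, 10.3, 5.71 and 9.43% of thinned 4E-BP1–cKO cells. Ldha was seen in 5.35, 3.46, 8.96 and 11.9% and in 6.71, 7.35, 5.71 and 15.1%. Eno1 went from 31.2 to 115 CPM over the control classes, but in the 4E-BP1–cKO cells it had 31.4, 52.0, 61.8 and 50.5 CPM. Tpi1 ranged from 61.8 to 94.0 CPM in the control and from 47.0 to 97.8 CPM in the 4E-BP1–cKO cells. Pgk1, at 17.7 to 47.8 and 16.9 to 56.8 CPM, was highest in the class of 10% or more. In that class of the control, the top cell for Pgk1 held 10 of its 30 UMIs. The top cell likewise held 10 of 39 UMIs for Pgam1 and 10 of 59 for Tpi1. Levels of single members without such a cell were not computed, so the place of this class is uncertain for them. Slc2a1, the transporter, had no order, with 143, 88.7, 99.5 and 131 CPM in the control and 142, 151, 119 and 101 CPM in the 4E-BP1–cKO cells.

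**Figure D2:**
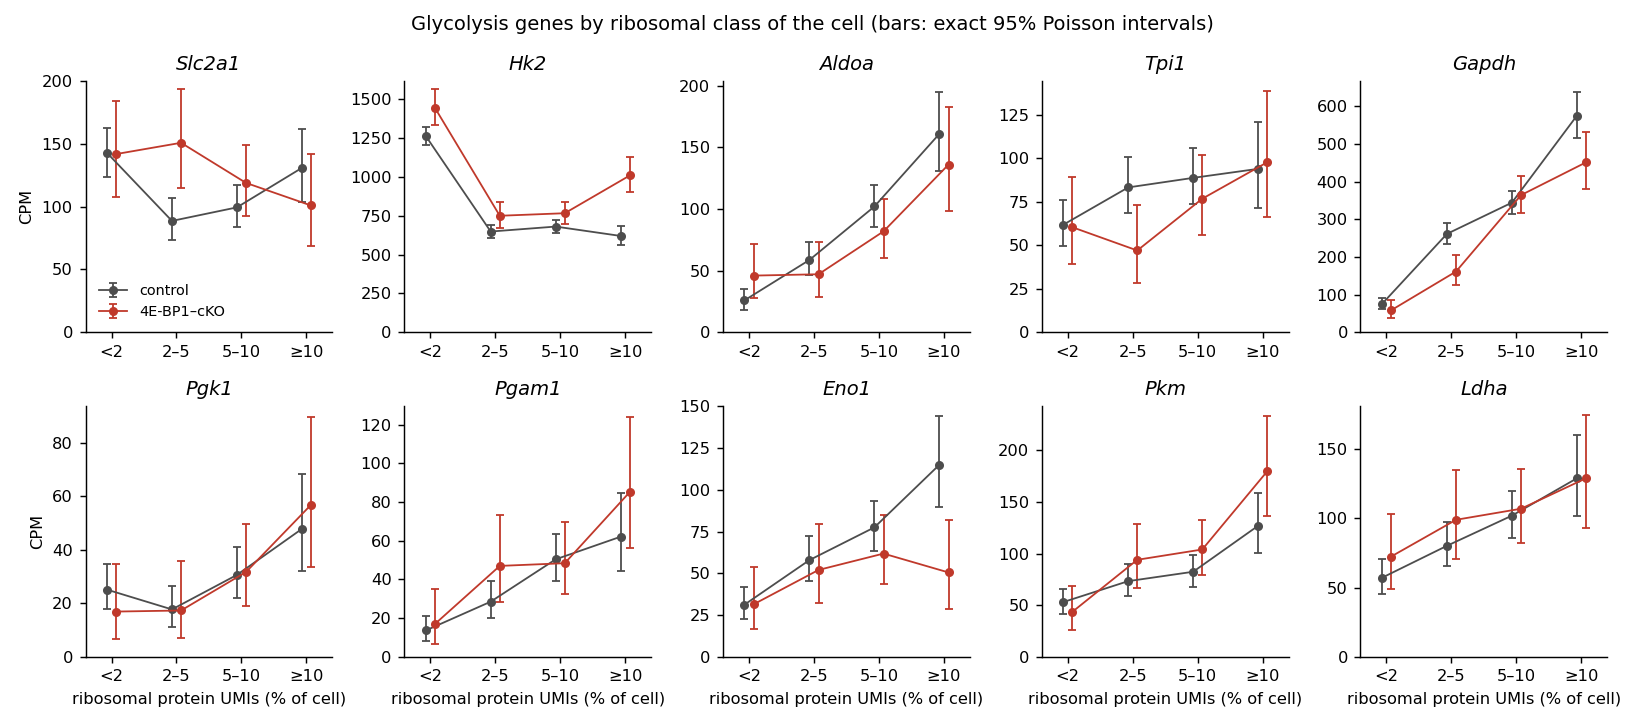
Level of each of the 10 members in CPM (vertical axes from 0) by the share of a cell's UMIs on ribosomal protein genes, in the control (grey) and 4E-BP1–cKO (red) libraries, with exact 95% Poisson intervals. Hk2 is highest in the class under 2%, at 1264 and 1446 CPM, while Gapdh climbs from 74.7 to 575 CPM and from 57.9 to 451 CPM.

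Because Hk2 was highest in the lowest class and most of the enzymes in the highest, the sum of the members hid these differences. Summed, the 10 members had 1749, 1397, 1656 and 2061 CPM over the control classes and 1934, 1465, 1760.1 and 2296 CPM over the 4E-BP1–cKO classes. The 8 enzymes from Aldoa to Ldha summed to 342, 660.5, 877 and 1311 CPM in the control and to 345, 564, 875 and 1186 CPM in the 4E-BP1–cKO cells. Leaving out, after seeing the data, the control cell with the most UMIs of these enzymes (98 of its 18964 UMIs) gave 1191 CPM in the highest class in place of 1311, and leaving out the corresponding 4E-BP1–cKO cell (40 of 10279 UMIs) gave 1095 CPM. The ratio of Hk2 to Gapdh, which needs no scaling to a total, was 16.9 (14 to 20.7) under 2% and 1.08 (0.931 to 1.25) at 10% or more in the control cells. The same ratio in the 4E-BP1–cKO cells was 25 (16.6 to 39.3) and 2.24 (1.83 to 2.74). Hk2 had at least as many UMIs as Gapdh in each class, and the size of its excess differed between classes, down to an unresolved 1.08 in the highest control class.

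To set the members beside all genes, cells with at least 5% ribosomal UMIs were compared with cells under 2% within each library, as a log2 ratio of CPM with 1 CPM added. A gene was counted when it was past 1.5-fold. Genes with at least 20 UMIs in the library, other than those of ribosomal proteins, formed the background. In the control library 6 of the 10 members were higher in the cells of high ribosomal share and 1 was lower, where 22.8% of 11001 genes were higher and 28.1% lower. Among the 4E-BP1–cKO cells 7 were higher and 1 lower, where 25.7% of 7941 genes were higher and 30.6% lower. The median log2 ratio of the members was 0.89 and 0.99, while that of all genes was -0.15 and -0.14. With TMM scaling, which aligns the bulk of genes, the median of all genes moved to 0.06 and 0.12, the background became 28.9% higher and 18.0% lower in the control and 33.4% and 19.2% in the 4E-BP1–cKO library, and 8 members were higher in each.

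Gapdh had the largest ratio in both libraries, with 845 UMIs in the control cells of high and 110 UMIs in those of low ribosomal share (5.56-fold, 4.55 to 6.84, log2 2.46), and 361 and 24 UMIs in the 4E-BP1–cKO cells (6.80-fold, 4.50 to 10.8, log2 2.75). Aldoa followed in the control with 4.65-fold (3.29 to 6.72) and had 2.19-fold (1.33 to 3.80) in the 4E-BP1–cKO cells, where thinning each cell to 872 UMIs turned its log2 ratio from 1.11 to -0.22. Pgam1 was 3.98-fold higher (2.46 to 6.77) in the control and 3.62-fold higher (1.65 to 9.41) in the 4E-BP1–cKO cells. Eno1 had 2.85-fold (2.05 to 4.03) and 1.84-fold (0.992 to 3.69), an interval that in the 4E-BP1–cKO cells reached 1. Pkm was higher by 1.82-fold (1.39 to 2.39) and 2.99-fold (1.81 to 5.22), and Ldha by 1.93-fold (1.49 to 2.51) and 1.58-fold (1.05 to 2.46). The log2 ratio of Pkm in the control fell from 0.85 to 0.33 in cells with 2000 to 8000 UMIs and to 0.51 in thinned cells, both inside 1.5-fold. That of Ldha fell from 0.66 to 0.43 in 4E-BP1–cKO cells with 2000 to 8000 UMIs. With this restriction 5 members were higher in the control, where 24.0% of all genes were.

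Pgk1 was past 1.5-fold only in the 4E-BP1–cKO library, at 2.39-fold (1.05 to 6.35) from 37 and 7 UMIs, against 1.43-fold (0.948 to 2.18) in the control, and the difference between the libraries was not tested. Among 4E-BP1–cKO cells with 2000 to 8000 UMIs its log2 ratio was -0.08. Tpi1 did not pass the limit in either library, with 1.46-fold (1.13 to 1.90) and 1.39-fold (0.877 to 2.28). Slc2a1 had ratios below 1, at 0.765 (0.630 to 0.928) and 0.790 (0.568 to 1.11), and passed the limit in the lower direction in both libraries when each cell's own CPM was averaged.

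Hk2 was the member past 1.5-fold in the lower direction, with a ratio of 0.523 (0.487 to 0.562, log2 -0.93) from 1346 and 1861 UMIs in the control and 0.588 (0.528 to 0.655, log2 -0.77) from 779 and 599 UMIs in the 4E-BP1–cKO cells. Its log2 ratio stayed between -1.04 and -0.71 in the control and between -0.98 and -0.43 in the 4E-BP1–cKO cells over the alternatives tried, but TMM scaling (-0.49) and the restriction to cells with 2000 to 8000 UMIs (-0.43) brought it inside 1.5-fold in the latter. The 8 enzymes summed had log2 ratios of 1.56 and 1.51, and the 10 members summed had 0.03 and 0.01.

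**Figure D3:**
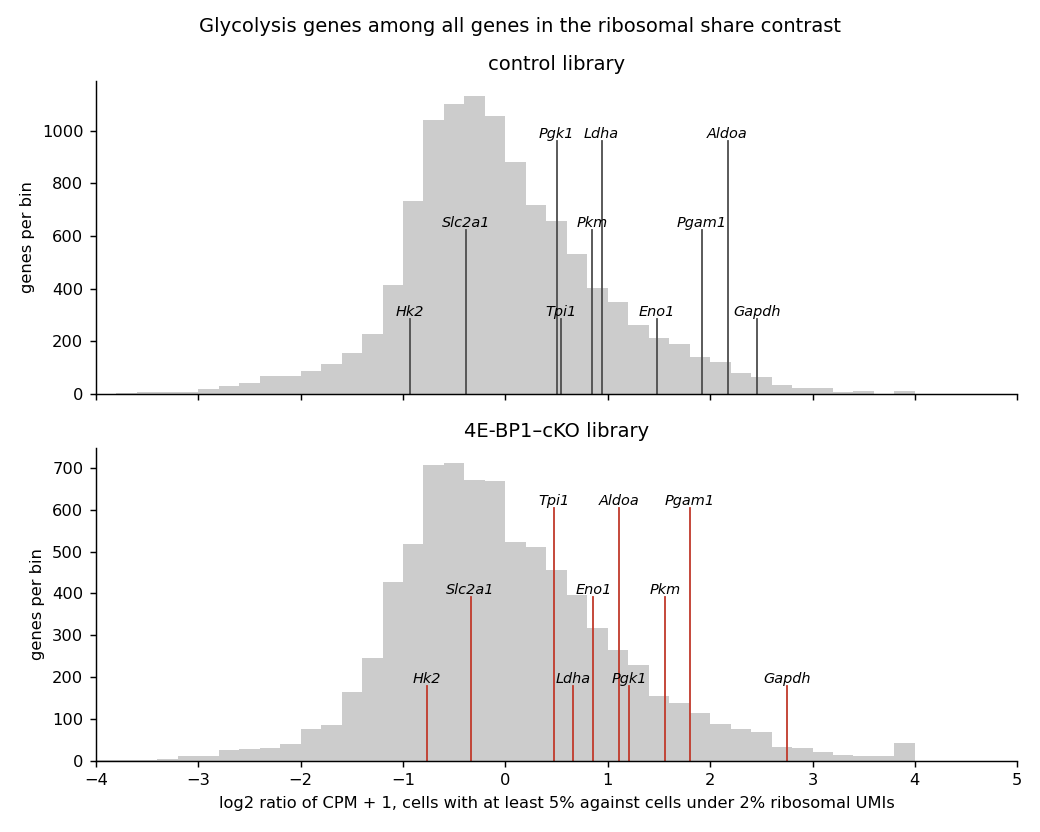
Number of genes by log2 ratio of CPM + 1 between cells with at least 5% and cells under 2% of UMIs on ribosomal protein genes (grey bars of width 0.2, the end bars also holding genes beyond them), with vertical lines at the values of the 10 members, in the control (upper) and 4E-BP1–cKO (lower) library. Line heights only separate the names. Gapdh lies far right in both, at 2.46 and 2.75, and Hk2 lies left, at -0.93 and -0.77.

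Other features of the cells moved with the same classes, and their part in the members' levels was not tested. Malat1, a nuclear RNA, took 4.92% of UMIs in the lowest and 2.0% in the highest control class, and 5.24% and 2.54% in the 4E-BP1–cKO cells. The median cell held 2451 UMIs in the lowest and 7051 in the highest control class, and 1979 and 5524 among 4E-BP1–cKO cells. The 12 early-response genes, such as Fos and Jun, which dissociation of tissue is known to induce, took 1.21, 1.76, 2.20 and 1.77% of UMIs over the control classes and 1.53, 2.23, 2.63 and 2.44% over the 4E-BP1–cKO classes. The 10 microglial markers summed to 6150.0 CPM in the lowest control class and 11673 to 12375 CPM in the others, and to 5961 and 9844 to 11719 CPM in the 4E-BP1–cKO library. Among the 20 control cells with markers of another type, 4 carried endothelial markers and held 16 of the 547 Slc2a1 UMIs, a gene that vessels of the brain are known to express strongly. Without the cells of another type, an alternative added after seeing the data, 8 members were higher and 1 lower in the control library, and 7 and 1 in the 4E-BP1–cKO library. Of all genes in that setting, 22.3% were higher and 28.5% lower in the control, and 25.7% and 30.7% in the 4E-BP1–cKO library.

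Gene span moved with the contrast as well, and its part, or that of intronic reads if these were counted, was not tested. Among the genes tested in the control, those of the shortest of 3 equal groups (under 15.2 kb) had a median log2 ratio of 0.49, and those of the longest (over 42.0 kb) had -0.53. In the 4E-BP1–cKO library the medians were 0.61 (under 17.2 kb) and -0.64 (over 48.7 kb), and Spearman's rho across genes, which are not replicates, was -0.49 and -0.55. Hk2, at 49.4 kb, fell in the longest group in both libraries, with -0.93 and -0.77. Gapdh, Aldoa and Pgam1, at 4.62, 5.76 and 6.79 kb, fell in the shortest group and lay above its median in both libraries, at 2.46, 2.17 and 1.92 in the control and 2.75, 1.11 and 1.80 in the 4E-BP1–cKO library. Tpi1, the shortest member at 3.57 kb, lay near the median of its group, at 0.54 and 0.47. Pkm (22.8 kb, 0.85 and 1.56) and Slc2a1 (28.6 kb, -0.38 and -0.34), both of the middle group, stood on either side of its medians of -0.10 and -0.08.

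**Figure D4:**
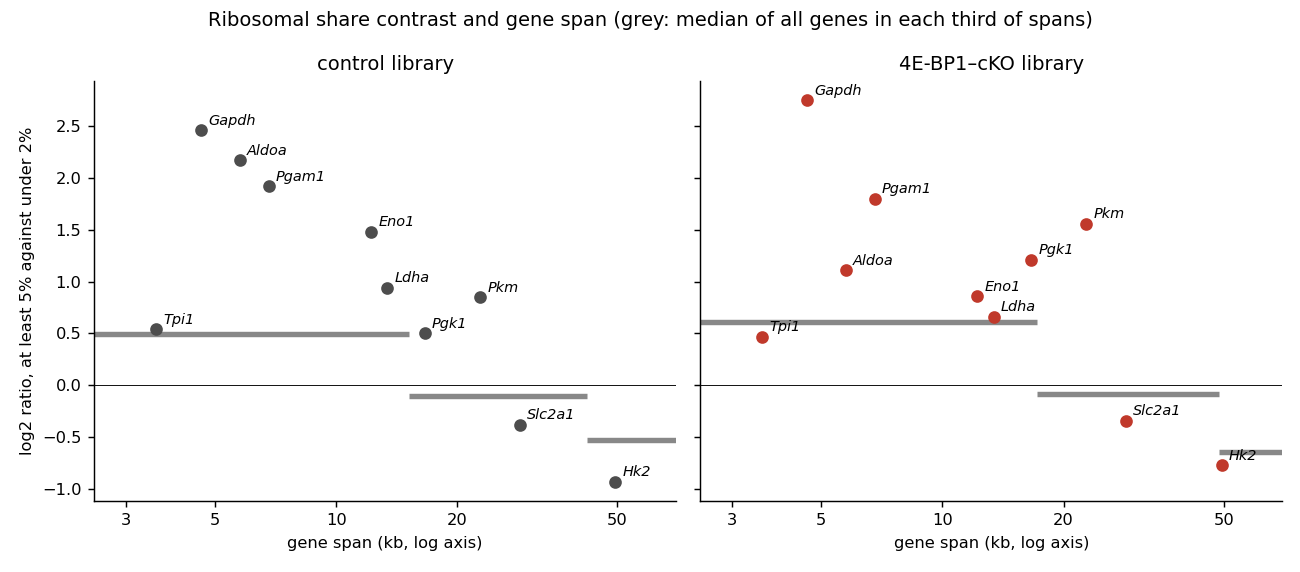
Log2 ratio between cells with at least 5% and under 2% ribosomal UMIs against the end-to-end span of the gene in kb (log axis) for the 10 members, in the control (left) and 4E-BP1–cKO (right) library. Grey lines are the medians of all genes in 3 equal groups by span. Hk2, the longest member, has the lowest value, and the 8 enzymes from Aldoa to Ldha lie above the median of their group in the control, as do 7 of them in the 4E-BP1–cKO library, where Tpi1 (0.47) is below 0.61.

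Between the libraries, no member differed by more than 1.5-fold. In the 4E-BP1–cKO against the control library, 0 of 10 members were higher and 0 lower, where 4.32% of 11784 genes were higher and 11.3% lower, and the median log2 ratio was 0.13 for the members and -0.05 for all genes. Hk2 had a ratio of 1.15 (1.09 to 1.22), Pkm 1.31 (1.09 to 1.58) and Pgam1 1.36 (1.03 to 1.78), and these intervals lay above 1. Ldha (1.18, 0.980 to 1.41), Slc2a1 (1.13, 0.962 to 1.32), Pgk1 (1.06, 0.753 to 1.48), Aldoa (1.01, 0.816 to 1.23), Gapdh (0.964, 0.864 to 1.07), Tpi1 (0.875, 0.707 to 1.08) and Eno1 (0.798, 0.621 to 1.02) had intervals that included 1. An interval above 1 says that counting error does not cover the gap between these 2 libraries, and differences between mice, sorts or captures were not measured. Thinning the cells to 872 UMIs brought the log2 ratio of Hk2 from 0.20 to 0.05 and that of Pkm from 0.39 to -0.04, and put Pgk1 (0.64) and Pgam1 (0.61) past 1.5-fold, where 15.7% of all genes were higher and 23.9% lower in thinned cells, so 2 of 10 was near the background. Gapdh, at a log2 ratio of -0.05, ran from -0.33 when each ribosomal class was weighted the same to 0.19 in thinned cells, so its direction depended on the setting. The 10 members summed to 1668 CPM in the control and 1831 CPM in the 4E-BP1–cKO library (1.10, 1.05 to 1.14), and the 8 enzymes to 711 and 733 CPM (1.03, 0.965 to 1.10).

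**Figure D5:**
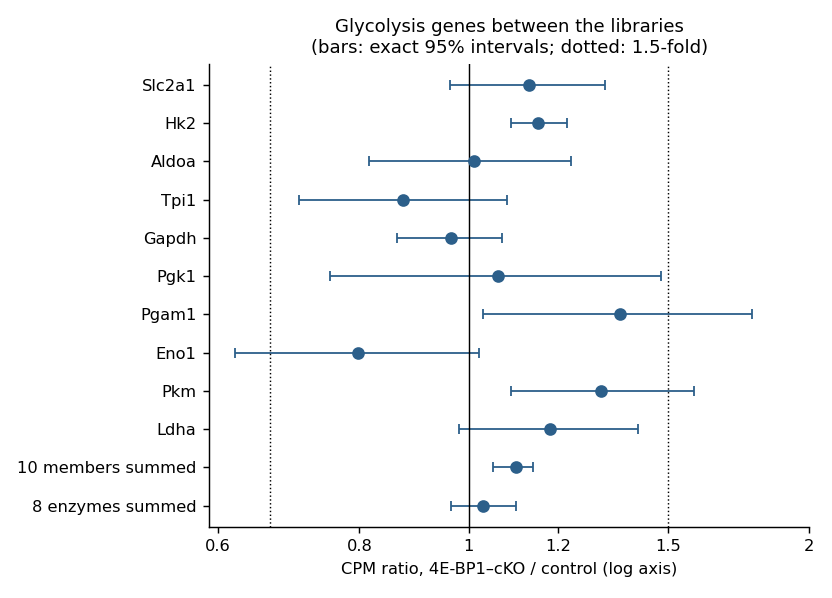
Ratio of CPM in the 4E-BP1–cKO to the control library for the 10 members, their sum and the sum of the 8 enzymes from Aldoa to Ldha (log axis), with exact 95% intervals for counting error and dotted lines at 1.5-fold in either direction. All points lie between 0.798 for Eno1 and 1.36 for Pgam1.

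The libraries held different shares of the ribosomal classes, so the members were also compared within each class. By summed CPM, Hk2 was higher in the 4E-BP1–cKO cells in each class, by 1.14 (1.04 to 1.26) under 2%, 1.16 (1.01 to 1.32) from 2 to 5%, 1.13 (1.01 to 1.26) from 5 to 10% and 1.63 (1.40 to 1.89) at 10% or more. At equal depth this direction did not hold in the middle classes, where Hk2 had 0.826 against 0.943 UMIs per 1000 thinned UMIs from 2 to 5% and 0.754 against 0.799 from 5 to 10%, while it had 1.67 against 1.41 under 2% and 1.04 against 0.614 at 10% or more. These thinned levels have no interval, so a reversal was not resolved. Thinning also kept fewer cells, 68 of 93 4E-BP1–cKO and 231 of 275 control cells from 2 to 5%. From 5 to 10% it kept 105 of 121 and 201 of 238. The value in the highest class came from 320 UMIs in 54 4E-BP1–cKO cells and 389 UMIs in 85 control cells, or 1009 and 619.6 CPM, and the highest Hk2 count of a cell there was 22 in both libraries. After thinning, 56.6% of these 4E-BP1–cKO cells (42.3 to 70.2%) and 31.0% in the control (21.3 to 42.0%) had an Hk2 UMI. Eno1 was lower in the same class, with 50.5 against 115 CPM (0.440, 0.239 to 0.764). At 10% or more, 1 member was higher and 1 lower, where 9.25% of genes were higher and 15.0% lower.

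In the class of 2 to 5%, Slc2a1 (151 against 88.7 CPM, 1.70, 1.23 to 2.34) and Pgam1 (1.65, 0.894 to 2.94) were higher in the 4E-BP1–cKO cells. Gapdh (161 against 261 CPM, 0.617, 0.465 to 0.806) and Tpi1 (47.0 against 83.3 CPM, 0.564, 0.327 to 0.924) were lower, where 8.63% of genes were higher and 17.2% lower. At equal depth Pgam1 was seen in 0 of 68 4E-BP1–cKO and 7 of 231 control cells of this class, the other direction. Slc2a1 was seen in 14.7% against 7.36% of these thinned cells, Gapdh in 17.6% against 21.2% and Tpi1 in 5.88% against 6.49%. For each of these genes the intervals of the thinned shares overlapped, so none of these differences was resolved at equal depth. Under 2%, Aldoa alone was past the limit, at 1.78 (0.968 to 3.16) from 19 and 38 UMIs, where 9.79% of genes were higher and 15.8% lower. From 5 to 10%, 0 members were past it in either direction, where 8.38% were higher and 12.7% lower. Gapdh, for instance, was at 364 against 344 CPM there. The sum of the 8 enzymes had ratios of 1.01, 0.854, 0.998 and 0.905 from the lowest to the highest class.

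Beyond the members, 28 further genes of glycolysis were listed, and 17 had enough UMIs to compare the libraries. Of these, Slc2a6 was past 1.5-fold higher in the 4E-BP1–cKO library (8.07 against 3.96 CPM, from 14 and 19 UMIs, 2.04, 0.947 to 4.29), and Eno3, Ldhc, Pfkfb2 and Tigar were lower, from at most 59 UMIs each in the control. Among all genes 4.32% were higher and 11.3% lower between the libraries. Pfkfb3, with 583 and 1871 UMIs, had a ratio of 0.863 (0.785 to 0.948). In the comparison by ribosomal share, 3 of 16 were higher and 2 lower in the control, and 3 of 9 higher and 2 lower in the 4E-BP1–cKO library, beside 22.8% and 28.1% of all genes in the control and 25.7% and 30.6% in the other, so the higher counts were near the background. Ldhb was higher by 2.44-fold (1.97 to 3.04) and 4.97-fold (3.11 to 8.43), like Gapdh. Pfkfb3 (0.735, 0.661 to 0.817, and 0.647, 0.536 to 0.783) and Pfkfb4 (0.601 and 0.603) had ratios below 1, like Hk2.

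For the HIF-1 pathway, 15 genes were listed, among them Hif1a and Arnt, its subunits, and known targets. Between the libraries Vegfa, a vascular growth factor, was past 1.5-fold higher in the 4E-BP1–cKO library (45 against 72 UMIs, or 25.9 against 15.0 CPM, 1.73, 1.17 to 2.55). Epas1 (6 against 60 UMIs, 0.277, 0.0978 to 0.639) and Ankrd37 (3 against 26 UMIs, 0.320, 0.0619 to 1.04) were lower. A single control cell held 15 of the 60 Epas1 UMIs, and a single 4E-BP1–cKO cell held 8 of the 45 Vegfa UMIs. Beside these 3 genes, 4.32% of all genes were higher and 11.3% lower. Epas1 is known from endothelial cells, whose 6 markers summed to 89.1 CPM in the control and 40.9 CPM in the 4E-BP1–cKO library, and their part in its ratio was not tested. Hif1a was at 229 and 268 CPM (1.17, 1.05 to 1.30). A single cell held 33 of its 1102 UMIs in the control and 37 of its 465 UMIs in the 4E-BP1–cKO library. Ratios without these cells were not computed, so this difference is uncertain. By ribosomal share 7 of 15 were higher and 2 lower in the control, and 3 of 12 higher and 1 lower in the 4E-BP1–cKO library, where 22.8% and 25.7% of all genes were higher, so the share in the latter was at the background. Bnip3l, a receptor for mitophagy, was higher by 4.67-fold (3.19 to 7.05) and 4.41-fold (2.13 to 10.6), and Mif, a cytokine, by 4.26-fold and 3.84-fold. Arnt was lower, at 0.552 (0.430 to 0.708) and 0.423 (0.272 to 0.655), and Hif1a had 0.816 and 0.699. The Hif1a ratio of 0.699 is uncertain, because 1 4E-BP1–cKO cell held 37 of the 150 Hif1a UMIs of the class under 2%.

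Of the genes that handle pyruvate and lactate, 3 of 10 were higher and 3 lower by ribosomal share in the control and 5 of 10 higher and 2 lower in the 4E-BP1–cKO library, beside the same shares of all genes. Mpc1, a subunit of the mitochondrial pyruvate carrier, was higher by 1.55-fold (1.29 to 1.88) and 1.58-fold (1.13 to 2.27) in cells of high ribosomal share, and the lactate carrier Slc16a7 was lower, at 0.576 (0.443 to 0.746) and 0.533 (0.341 to 0.839). Between the libraries 0 of 10 were higher and 2 lower, namely Dlat, a subunit of pyruvate dehydrogenase (0.629, 0.367 to 1.03), and Pdk1, which inhibits that enzyme. In that comparison 4.32% of all genes were higher and 11.3% lower. Pdk1 was at 70.4 CPM in the control and 44.4 CPM in the 4E-BP1–cKO library (0.631, 0.486 to 0.810). The 34 nuclear genes of oxidative phosphorylation listed here, chosen with earlier results of these data known, were the most uniform of the lists compared. Of them, 33 were higher in cells of high ribosomal share in both libraries, with a median log2 ratio of 2.37 and 2.40. Uqcr11 (log2 ratios of 3.54 and 3.42) and Atp5e (2.94 and 3.69) stood at the top. Of the citric acid cycle genes 9 of 17 were higher and 0 lower in the control, and 7 of 15 higher and 2 lower in the 4E-BP1–cKO library. Of the pentose phosphate genes 4 of 7 and 3 of 6 were higher and 0 lower. Beside these lists, 22.8% and 25.7% of all genes were higher and 28.1% and 30.6% lower. Between the libraries 0 of 34 oxidative phosphorylation genes and 0 of 17 citric acid cycle genes were past 1.5-fold, as was the case for the members.

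The genes most like the members were sought by Pearson's r of log2(CPM + 1) over the 8 points formed by 4 classes in 2 libraries, among genes with at least 200 UMIs. These points share libraries and depth, and r is a description. Over them Hk2 had r = -0.78 with Gapdh, while Aldoa, Pgam1, Eno1, Pkm and Ldha had r between 0.87 and 0.90 with Gapdh. Tpi1 (0.77) and Pgk1 (0.73) were less like Gapdh, and Slc2a1 had -0.57. With the ribosomal share of the points, Hk2 had r = -0.43 and Gapdh 0.87. The sum of the 8 enzymes was most like Gngt2 (0.999), Cox4i1 (0.996), Cox8a (0.995), Fth1 (0.994) and Atpif1 (0.994). Hk2 was most like Manba (0.965), Il17ra (0.963), Tcof1 (0.95), Cep85 (0.939) and Patl1 (0.938). The sum of the 10 members, in which Hk2 weighs most, was most like Etv3 (0.981), Smim3 (0.944), Art3 (0.937), Gna13 (0.923) and Cpd (0.919), so it shared no leading gene with either.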

How the data were processed

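Microglia sorted from spinal cord were profiled by droplet 3′ RNA sequencing in 1 control and 1 4E-BP1–cKO library. The deposited values are UMI counts per gene and barcode, which the authors made with Cell Ranger (8.0.1 in the file header) from reads aligned to mm10, with barcodes called as cells and no normalization. Whether intronic reads were counted, and the annotation release, are not given in the sources used here.

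Kept were barcodes in which over 300 genes were detected and 13 mt- genes took less than 5% of UMIs, which left cells of 500 to 28109 UMIs in the control and 503 to 35216 UMIs in the 4E-BP1–cKO library. Doublets called by Scrublet (scanpy 1.11.5), 4 and 11 cells, were left out only as an alternative. Counts were summed over cells of a library or class and divided by the summed total (CPM). Log2 ratios used a pseudocount of 1 CPM, and a gene was called past 1.5-fold. Rows of 1 symbol were summed. Intervals are 95% and exact (Poisson for levels, conditional binomial for ratios, Clopper-Pearson for shares), and UMIs within a cell are not independent of each other. Cells are not replicates, so no p-value was computed. Classes were set at 2, 5 and 10% of UMIs on 85 ribosomal protein genes. Ratios of ribosomal share compare cells of at least 5% with cells under 2%. Their background holds genes with at least 20 UMIs in the whole library and leaves out ribosomal protein genes. Between the libraries, also within a class, the background holds genes with at least 20 UMIs over the cells compared.

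The members and all gene lists were chosen with earlier results of these data known. Named were the 10 members, genes of the lists of other glycolysis, lactate and pyruvate, and HIF genes with at least 20 UMIs, the 2 largest changes of other metabolic lists, marker genes as values beside a result, and the 5 genes most like a target. Start-site windows and gene positions came from RefSeq tables of GRCm38.p6, matched by symbol, and 95.5 and 97.6% of the genes in the comparisons by ribosomal share had a span. The computations used Python 3.11.15, numpy 2.4.6, scipy 1.17.1, pandas 2.3.3 and matplotlib 3.10.9, with TMM factors from edgeR 4.0.16 in R 4.3.3, and were tested on simulated data. Alternatives changed the cell limits, the doublets, the total, the scaling, the pseudocount, the depth, the averaging and the definition of ribosomal share.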

Additional observations from a re-analysis of the deposited data

Results flagged for a closer look

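Slc16a1, which encodes a carrier of lactate and pyruvate, had opposite directions in the libraries when cells with at least 5% ribosomal UMIs were compared with cells under 2%. In the control its log2 ratio was -0.90, from 50 and 69 UMIs (24.6 against 46.9 CPM), with an interval of the ratio of 0.357 to 0.765. In the 4E-BP1–cKO library the log2 ratio was 0.59, from 37 and 11 UMIs (40.4 against 26.6 CPM), with an interval of 0.760 to 3.31 that included 1. The difference between the libraries was not tested. From the lowest to the highest class the level of Slc16a1 was 46.9, 28.5, 28.4 and 15.9 CPM in the control and 26.6, 29.7, 46.8 and 28.4 CPM in the 4E-BP1–cKO library.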

How the results depend on the processing

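Of 476 values recomputed under the alternatives, 433 stayed within the counting interval of the reported value (for counts of members, within 1.5 times), 41 moved beyond it, and 2 that had been past 1.5-fold changed sign. Of the 408 log2 ratios among them 17 changed sign, 15 of which had been inside 1.5-fold. No paired analysis was possible because each genotype had 1 library. Between the libraries, thinned cells put 2 members higher by over 1.5-fold, where 15.7% of all genes were, and the mean of each cell's own CPM gave 0.26 for the 10 members summed (log2). In the comparison by ribosomal share, the 10 members summed had 0.15 in the control and 0.14 in the 4E-BP1–cKO library with a total without ribosomal protein and mt- genes, 0.25 and 0.28 with TMM factors, -0.05 and -0.16 in thinned cells, and -0.08 and -0.24 with the mean of each cell's own CPM, and 0.13 in 4E-BP1–cKO cells of 2000 to 8000 UMIs. The members lower by over 1.5-fold numbered 2 in thinned control cells and 2 in each library with the mean of each cell's own CPM, but 0 in the 4E-BP1–cKO library with TMM factors or with 2000 to 8000 UMIs. Of all genes, 35.1% were lower in thinned control cells, and 31.0% (control) and 31.2% (4E-BP1–cKO) with each cell's own CPM. In the 4E-BP1–cKO library 19.2% were lower with TMM factors and 33.4% with 2000 to 8000 UMIs. Aldoa reversed to -0.22 in thinned 4E-BP1–cKO cells, and Pgk1 to -0.08 in those of 2000 to 8000 UMIs. The cause was not tested. The 8 enzymes summed ran from 1.43 to 1.78 and from 1.32 to 1.78 over these alternatives, and Gapdh from 2.33 to 3.13 and from 2.44 to 3.02. With no minimum of 20 UMIs, 7.99% of genes were higher and 16.4% lower between the libraries. Members under about 50 UMIs in a group, such as Pgk1 and Pgam1, have wide intervals, and a single library per genotype leaves variation between mice unmeasured.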
